A study of Mus musculus with 119 samples.

Results

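Nr4a1, Nr4a2, and Nr4a3 are the 3 members of the NR4A family of orphan nuclear receptors. Their rows were taken by gene symbol from a table of 18098 genes, and all 3 were found and passed the filter on low values. The table came from RNA-seq of mouse bone marrow-derived macrophages (BMDMs), left without LPS or stimulated with it, in libraries that fall into 25 groups by genotype, inhibitor, and time. In short, LPS raised Nr4a1 within 0.5 h and the mRNA was back near its starting level at 2 h, Nr4a3 rose at 1 h and more so at 2 h, and Nr4a2 did not pass the test in wild-type (WT) cells. At 1 h Nr4a1 was lower than in WT in each of the mutant genotypes and with an MKK1/2 inhibitor. At that time Nr4a3 was lower in only some of these and higher with an RSK inhibitor. With the RSK inhibitor Nr4a3 was already higher without LPS.

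NR4A proteins (Nur77 for Nr4a1, Nurr1 for Nr4a2, and Nor1 for Nr4a3) are transcription factors with the domain plan of nuclear receptors but with a ligand pocket filled by bulky side chains, so that their activity is thought to follow mainly from how much protein is made. Their genes are immediate early genes, which are transcribed from factors already in the cell, and in macrophages they have been described as restraining inflammatory gene expression. In LPS-stimulated macrophages the kinase TPL-2 (gene Map3k8) is held inactive by NF-κB1 p105 until p105 is degraded, and then activates MKK1/2 and through them ERK1/2. ERK1/2 in turn phosphorylate the ternary complex factors ELK1 and ELK4, which act with serum response factor, and activate kinases of the RSK family.

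All groups were of the strain given as C57BL/6(NIMR), and bone marrow cells had been grown for 7 days with L-cell conditioned medium. LPS was given at 100 ng/ml. WT cells gave 22 libraries (6 unstimulated, 6 each at 0.5 and 1 h, and 4 at 2 h), and Map3k8[D270A] cells, whose TPL-2 has no kinase activity, gave 24 (6 each at 0, 0.5, 1, and 2 h). Elk1-/-Elk4-/- cells gave 16 (4 at each of these times), and Nfkb1[SS/AA] cells, whose p105 cannot be phosphorylated for degradation, gave 18 (6 each at 0, 0.5, and 1 h). WT cells with the MKK1/2 inhibitor PD0325901 at 0.1 µM gave 21, namely 3 each after 10, 40, and 70 min of the inhibitor alone and, with LPS after a pretreatment of 10 min, 6 each at 0.5 and 1 h. The solvent DMSO alone for 10 min gave 3, and WT cells with the RSK inhibitor RSKi47 at 2 µM gave 15 (4 without LPS, 3 at 0.5 h, and 4 each at 1 and 2 h). The labels place each genotype or inhibitor except Map3k8[D270A] in an experiment of its own, without WT libraries of that experiment, so that for those arms the treatment or genotype and the experiment cannot be told apart. All arms were set against the same 22 WT libraries and share them. The labels call the libraries replicates but do not say how many separate cultures or mice they came from, so the p-values measure the spread between these libraries.

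The table gives 1 value per gene and library on a log2 scale after normalization across libraries, and the highest value used was 19.81. No source used here gives the transformation. Differences below are therefore given on the deposited scale and not turned into folds, since a difference of 1 may stand for more than a 2-fold change. A gene was called when the Benjamini-Hochberg adjusted p of limma's moderated test, over all genes tested, was below 0.05. All 8 macrophage marker genes passed the filter, with a summed level between 18.4 and 19.2 in every library, and Lyz2 was the highest of them (17.5 to 18.7). Of 7 lymphocyte markers 0 passed (summed level 3.29 to 4.17). Other lists passed in part, with 6 of 8 neutrophil, 2 of 6 fibroblast, 2 of 5 dendritic cell, and 1 of 5 mast cell markers. Only 2 of the 5 mast cell markers had values at all, Kit (4.37 to 7.45) and Cpa3 (-0.99 to -0.45). The summed level of the mast cell list, which is thus almost wholly Kit, was 5.88 to 7.45 in Elk1-/-Elk4-/- libraries and 4.92 to 6.51 in WT. Macrophage genes were thus high throughout, and the share of other cells was not tested. Elk1 lay between 6.17 and 6.59 in the Elk1-/-Elk4-/- libraries against 9.04 to 9.49 in WT, and Elk4 between 5.51 and 5.88 against 7.57 to 8.49. The point mutations in Map3k8 and Nfkb1 cannot be checked by the amount of mRNA. The library of RSKi47 replicate 1 at 1 h stood apart from its group for all 3 Nr4a genes, and the libraries of RSKi47 replicate 4 stood apart more widely. Several results that rest on them are therefore given with and without them. Others, among them the permutation tests, are given with all libraries only. In bulk RNA, fewer cells expressing a gene and less RNA per cell cannot be told apart.

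The upstream sequences of the 3 genes are shown because NR4A genes are described as targets of CREB and related factors, which bind TGACG and its extensions. The sequences are those of RefSeq (GRCm38.p6), all 3 genes were matched by symbol, and the capitals mark TGACG on either strand (CGTCA when read on the strand printed). Nr4a1 (gene ID 15370) lies on chromosome 15 from 101253902 to 101274795, Nr4a2 (18227) on chromosome 2 from 57106830 to 57124003, and Nr4a3 (18124) on chromosome 4 from 48045078 to 48086447. The 250 bases before the start site are printed for Nr4a1 (chr15:101266596-101266845, plus strand, inside the annotated gene because other transcripts start further upstream) and for Nr4a2 (chr2:57124004-57124253, minus strand, outside the annotated gene). For Nr4a3, whose window (chr4:48045055-48045304, plus strand) lies mostly inside the annotated gene, only the 30 bases at chr4:48045087-48045116 are printed.
Nr4a1: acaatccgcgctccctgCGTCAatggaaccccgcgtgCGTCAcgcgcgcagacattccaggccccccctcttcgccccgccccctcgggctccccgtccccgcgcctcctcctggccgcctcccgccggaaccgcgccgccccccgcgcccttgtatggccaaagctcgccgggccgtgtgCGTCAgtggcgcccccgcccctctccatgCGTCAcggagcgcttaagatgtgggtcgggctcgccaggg
Nr4a2: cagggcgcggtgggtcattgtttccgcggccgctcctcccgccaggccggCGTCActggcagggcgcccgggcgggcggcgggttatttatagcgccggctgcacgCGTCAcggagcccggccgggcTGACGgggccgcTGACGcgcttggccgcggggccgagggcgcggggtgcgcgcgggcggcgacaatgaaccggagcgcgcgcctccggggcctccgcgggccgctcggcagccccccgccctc
Nr4a3: catgtCGTCAcatTGACGtctcgcattcca
Each of the 3 windows of 250 bases held 4 matches to TGACG, counted on both strands. Of 32851 windows of the same length before the start sites in the RefSeq table, 17.8% held at least 1 match and 0.137% held at least 4. These shares are not matched for base composition. The windows held 74.4% (Nr4a1), 80% (Nr4a2), and 63.6% (Nr4a3) G and C, and the part of this in the number of matches was not tested. In Nr4a1 the matches began at positions -233, -213, -69, and -40 from the start site, and each was part of TGACGCA, which occurred in neither of the other 2 genes and in 1.75% of all windows. In Nr4a2 they began at -200, -144, -123, and -111 and in Nr4a3 at -231, -213, -205, and -147. The full palindrome TGACGTCA (1.55% of windows) and the CArG box bound by serum response factor (1.47%) were found in none of the 3. A match is a description of letters in the window, and binding was not measured here.

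In WT cells LPS raised Nr4a1 first and Nr4a3 later. Nr4a1 had a lowest, median, and highest value of 7.50, 7.62, and 7.86 in unstimulated cells, 10.14, 10.91, and 11.58 at 0.5 h, and 10.48, 10.60, and 11.11 at 1 h. At 2 h its 4 libraries were at 7.24, 7.39, 7.54, and 7.42, within or just below the unstimulated range. Every library at 0.5 and 1 h therefore lay above every unstimulated library. The difference from unstimulated cells was 3.19 at 0.5 h (SE 0.14, adjusted p = 6.39e-27) and 3.04 at 1 h (SE 0.14, adjusted p = 6.69e-27), and at 2 h it was -0.27 (SE 0.15, adjusted p = 0.11). From 1 to 2 h Nr4a1 fell by 3.31 (SE 0.15, adjusted p = 3.74e-26). Over all genes, 11.6% were called at 0.5 h, 46.8% at 1 h, and 71.5% at 2 h against unstimulated cells, 40.3% between 0.5 and 1 h, and 65.3% between 1 and 2 h.

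Nr4a3 followed another course. Its lowest, median, and highest values were 3.52, 3.64, and 3.72 in unstimulated WT cells, 3.70, 3.81, and 4.26 at 0.5 h, and 5.23, 5.67, and 6.25 at 1 h. At 2 h the libraries were at 8.51, 8.32, 8.22, and 7.95. The ranges of the 1 and 2 h groups were clear of each other and of both earlier times. The difference was 0.25 at 0.5 h (SE 0.17, adjusted p = 0.391), 2.05 at 1 h (SE 0.17, adjusted p = 5.86e-16), and 4.63 at 2 h (SE 0.19, adjusted p = 3.25e-29). Nr4a3 thus rose between 0.5 and 1 h, by 1.80 (adjusted p = 9e-14), and again between 1 and 2 h, by 2.58 (adjusted p = 4.74e-18), the step in which Nr4a1 fell.

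Nr4a2, which is best known from dopamine neurons, stayed between 4.19 and 4.81 in all 22 WT libraries. These values, like those of Nr4a3 in unstimulated WT cells (3.52 to 3.72), were low beside unstimulated Nr4a1 (7.50 to 7.86). Whether small differences are resolved equally well at such levels was not tested. The group means of Nr4a2 were 4.38 ± 0.13 (SD, n = 6), 4.54 ± 0.07 (SD, n = 6), 4.59 ± 0.16 (SD, n = 6), and 4.59 ± 0.12 (SD, n = 4) in time order, and each group overlapped the unstimulated one. The differences from unstimulated cells were 0.17 (adjusted p = 0.271), 0.21 (adjusted p = 0.0568), and 0.21 (adjusted p = 0.0655). With replicate number as a block, the difference at 1 h passed the test (0.21, adjusted p = 0.0276). WT libraries of the same number deviated together, but this was not compared with libraries of different numbers, so the block is only an alternative. Without WT replicate 6 the differences at 1 h (0.25, adjusted p = 0.0436) and 2 h (0.28, adjusted p = 0.0334) passed as well.

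An earlier look at these data described WT replicates 4 to 6 and 7 to 9 as sets that differ, and Nr4a1 was among the genes that did so at 0.5 h. Its rise at 0.5 h was 2.64 in replicates 4 to 6 and 3.74 in replicates 7 to 9. The step from 0.5 to 1 h was -0.15 over all libraries (adjusted p = 0.431), but 0.38 (adjusted p = 0.0331) in the first set and -0.68 (adjusted p = 0.00154) in the second. Whether Nr4a1 peaked at 0.5 or at 1 h therefore depended on the set.

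**Figure D1:**
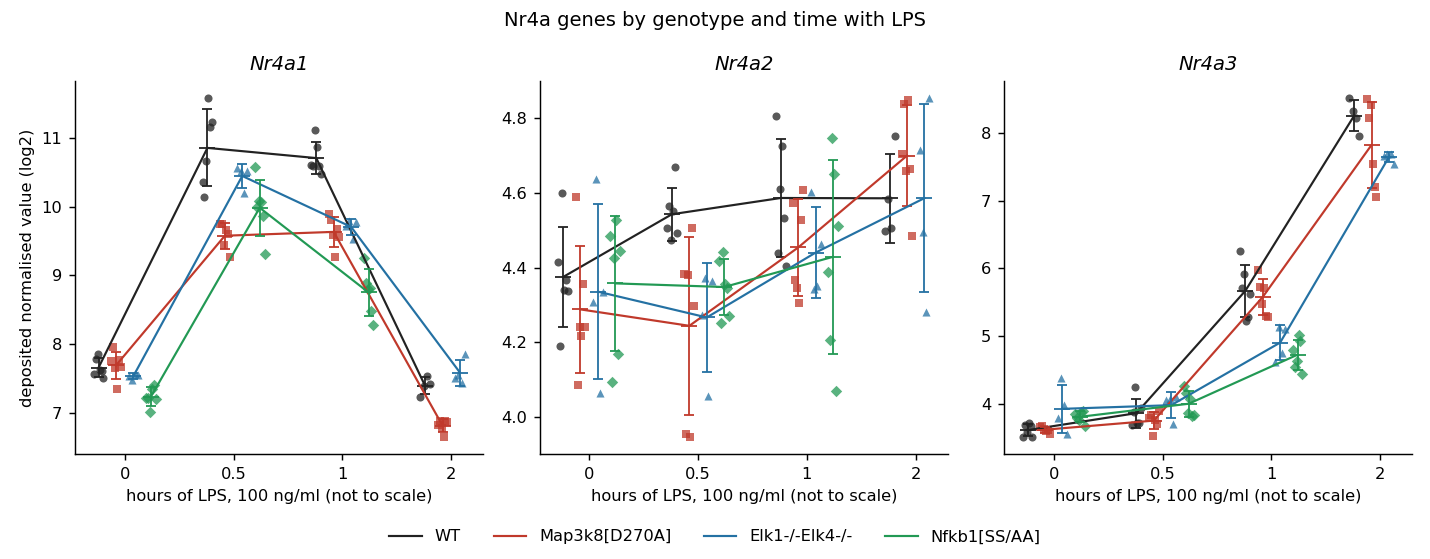
Deposited log2 level of Nr4a1, Nr4a2, and Nr4a3 (a panel each, with its own vertical axis) by hours of LPS (not to scale) in WT, Map3k8[D270A], Elk1-/-Elk4-/-, and Nfkb1[SS/AA] BMDMs. Points are libraries and bars are mean ± SD; in WT, Nr4a1 averages 10.85 at 0.5 h and 7.39 at 2 h, while Nr4a3 averages 3.87 and 8.25.

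Map3k8[D270A] cells, the only arm in the same experiment as WT, address the need for TPL-2 kinase activity. Nr4a1 was lower than in WT at each time of LPS and not in unstimulated cells, whereas Nr4a3 did not pass the test at any time. In Map3k8[D270A] cells the lowest, median, and highest values of Nr4a1 were 9.26, 9.63, and 9.75 at 0.5 h, 9.27, 9.63, and 9.89 at 1 h, and 6.65, 6.85, and 6.89 at 2 h. All of these libraries lay below every WT library of the same time. The differences from WT were -1.28 at 0.5 h (SE 0.14, adjusted p = 5.38e-10, 1.37% of genes called), -1.07 at 1 h (SE 0.14, adjusted p = 2.48e-08, 9.79% called), and -0.58 at 2 h (SE 0.15, adjusted p = 0.00265, 27.7% called). In unstimulated cells the difference was 0.03 (SE 0.14, adjusted p = 0.967), where 1.44% of genes were called. Within WT replicates 4 to 6 with Map3k8[D270A] replicates 1 to 3, the difference at 0.5 h was -0.74 (adjusted p = 0.00731), and within the other replicates it was -1.82 (adjusted p = 5.58e-07). At 1 h the same sets gave -1.01 and -1.14, and at 2 h -0.56 (adjusted p = 0.00384) and -0.61 (adjusted p = 0.063, with a single WT library).

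Nr4a1 was still induced without TPL-2 activity. LPS raised it in Map3k8[D270A] cells by 1.88 at 0.5 h (adjusted p = 8.82e-17, 5.08% of genes called) and by 1.94 at 1 h (adjusted p = 2.49e-18, 41.9% called), and at 2 h it was 0.88 below the unstimulated level (difference -0.88, adjusted p = 9.31e-08, 69.5% called). The response was smaller than that of WT by 1.31 at 0.5 h (difference of responses -1.31, SE 0.19, adjusted p = 1.43e-05). Nr4a1 was one of 13 genes whose response at 0.5 h differed, 0.109% of those tested. At 1 h the difference of responses was -1.10 (adjusted p = 8.98e-05, 2.02% of genes called) and at 2 h -0.61 (adjusted p = 0.0315, 15.5% called). The call at 2 h was lost with all libraries fitted (adjusted p = 0.113) and without Map3k8[D270A] replicate 1, 2, 3, or 5 or WT replicate 6 (-0.61 to -0.57, adjusted p up to 0.0684). The difference at 0.5 h was -0.79 (adjusted p = 0.555) in the first set of replicates and -1.83 (adjusted p = 9.73e-05) in the second.

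Nr4a3 in Map3k8[D270A] cells lay close to WT through the first hour. At 1 h its lowest, median, and highest values were 5.29, 5.59, and 5.98, inside the WT range of 5.23 to 6.25, and the difference was -0.09 (adjusted p = 0.825, 95% interval -0.42 to 0.24). At 2 h the values were 7.05, 7.88, and 8.50, and the 3 lowest libraries, replicates 4 to 6, lay below all WT libraries. The difference at 2 h was -0.43 (SE 0.19, adjusted p = 0.0779, interval -0.80 to -0.06), with 0.03 (adjusted p = 0.897) in the first set of replicates and -0.69 (adjusted p = 0.0222) in the second, where WT had 1 library. It also passed without Map3k8[D270A] replicate 1, 2, or 3 or WT replicate 7 (-0.57 to -0.51, adjusted p from 0.0167 to 0.0471). LPS raised Nr4a3 in these cells by 1.95 at 1 h (adjusted p = 4.81e-15) and 4.19 at 2 h (adjusted p = 1.53e-29). Nr4a2 did not differ from WT by the test at any time (-0.30 at 0.5 h, adjusted p = 0.106), and within the arm it rose by 0.41 at 2 h (SE 0.09, adjusted p = 0.000101).

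Nfkb1[SS/AA] cells, in which p105 is not degraded on stimulation, had lower Nr4a1 at 0.5 and 1 h and lower Nr4a3 at 1 h than WT. The lowest, median, and highest values of Nr4a1 were 9.31, 10.03, and 10.58 at 0.5 h and 8.28, 8.81, and 9.25 at 1 h. At 0.5 h the upper libraries overlapped WT, and at 1 h all 6 lay below it. The differences were -0.87 at 0.5 h (SE 0.18, adjusted p = 5.82e-05, 32.3% of genes called) and -1.95 at 1 h (SE 0.18, adjusted p = 1.47e-16, 42.5% called). In unstimulated cells the difference was already -0.43 (adjusted p = 0.058, 32% called), and it passed the test (adjusted p = 0.0073) when RSKi47 replicate 1 at 1 h was left out of the fit, which lowers the shared spread. Nr4a3 at 1 h had values of 4.45, 4.72, and 5.02, all below WT, and differed by -0.94 (SE 0.17, adjusted p = 5e-06). At 0.5 h it differed by 0.14 (adjusted p = 0.584), a time at which it had not yet passed the test in WT.

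LPS raised Nr4a1 in Nfkb1[SS/AA] cells by 2.75 at 0.5 h (adjusted p = 2.1e-25, 14.6% of genes called) and by 1.52 at 1 h (adjusted p = 2.57e-12, 44.4% called). Nr4a3 rose by 0.91 at 1 h (adjusted p = 4.71e-06). Against the WT response, the difference for Nr4a1 was -0.44 at 0.5 h, where 0.309% of genes were called and none of the 3 genes was among them. At 1 h, with 6.07% called, it was -1.53 for Nr4a1 (SE 0.25, adjusted p = 3.01e-06) and -1.13 for Nr4a3 (SE 0.25, adjusted p = 0.000617).

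PD0325901, which blocks MKK1/2 and with them ERK1/2, went with lower Nr4a1 while Nr4a3 was not called. The lowest, median, and highest values of Nr4a1 with the inhibitor were 8.95, 9.12, and 9.23 at 0.5 h and 8.72, 8.92, and 9.02 at 1 h, all below every WT library. The differences from untreated WT were -1.74 (SE 0.18, adjusted p = 1.66e-13, 29.4% of genes called) and -1.79 (SE 0.18, adjusted p = 2.03e-14, 35.7% called). For Nr4a3 they were -0.23 at 0.5 h (adjusted p = 0.34) and 0.15 at 1 h (adjusted p = 0.518, interval -0.19 to 0.50), and its 1 h libraries, from 5.66 through a median of 5.71 to 6.11, lay inside the WT range. Nr4a2 differed by -0.26 at 0.5 h (adjusted p = 0.199) and -0.17 at 1 h (adjusted p = 0.407).

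Nr4a1 was also lower in the libraries of this inhibitor and its solvent that had no LPS. Cells given PD0325901 alone were at 7.15, 7.12, and 7.16 after 10 min, 7.07, 7.18, and 7.24 after 40 min, and 6.95, 7.01, and 6.87 after 70 min, and cells given DMSO for 10 min were at 7.10, 7.40, and 7.15. All 12 lay below the lowest unstimulated WT library (7.50). The DMSO group differed from untreated WT by -0.45 (SE 0.22, adjusted p = 0.131, 23.6% of genes called). That difference passed when RSKi47 replicate 1 at 1 h was left out of the fit (limma adjusted p = 0.0303). It also passed when only the PD0325901, DMSO, and WT libraries were fitted (adjusted p = 0.0391). PD0325901 differed from DMSO at 10 min by -0.07 in a comparison where limma called 0% of genes, with 245 at an unadjusted p below 0.05. Longer exposure moved Nr4a1 by 0.02 at 40 min (3.58% called) and -0.20 at 70 min (adjusted p = 0.777, 6.09% called). Measured from the inhibitor alone at the matching time, LPS raised Nr4a1 by 1.95 at 0.5 h (adjusted p = 3.8e-12, 14.9% called) and 1.97 at 1 h (adjusted p = 2.61e-13, 43.6% called), and Nr4a3 by 2.02 at 1 h (adjusted p = 3e-14). Against the WT response this left differences for Nr4a1 of -1.24 at 0.5 h (SE 0.28, adjusted p = 0.00497, 1.49% called) and -1.07 at 1 h (SE 0.28, adjusted p = 0.0117, 3.58% called), the latter not passing without PD0325901 replicate 1 (-1.03, adjusted p = 0.0824) or 2 (-1.04, adjusted p = 0.0693). For Nr4a3 the same differences were -0.33 (adjusted p = 0.783) and -0.03 (adjusted p = 0.982).

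**Figure D2:**
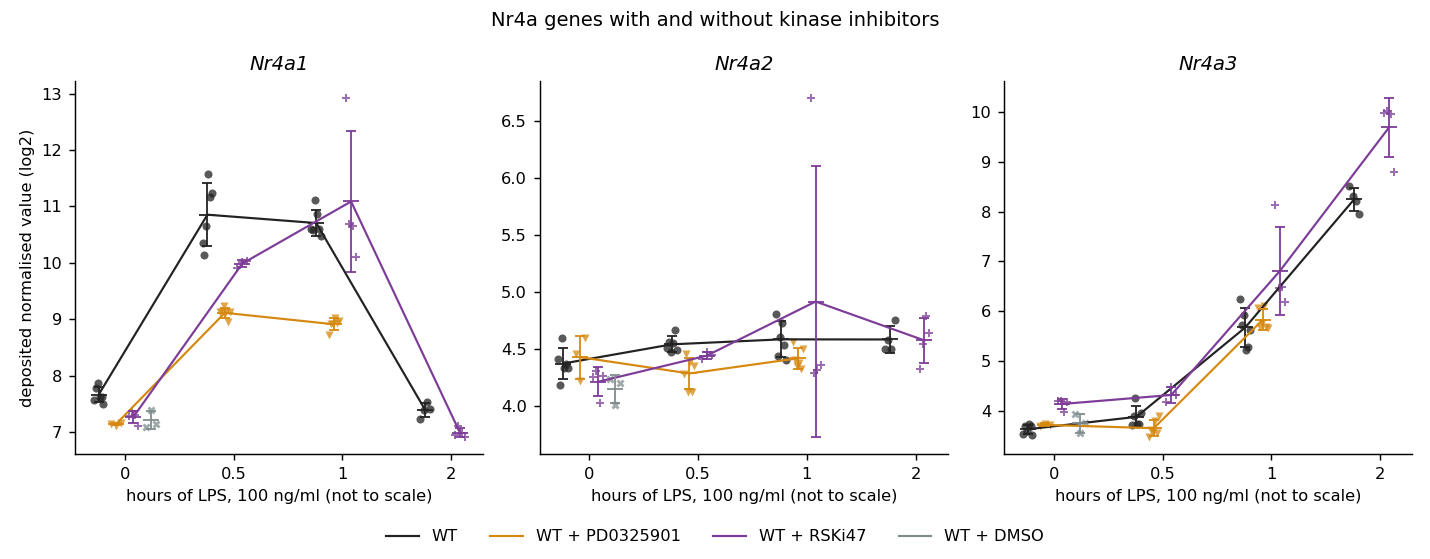
Deposited log2 level of the 3 genes by hours of LPS (not to scale) in untreated WT BMDMs and in WT BMDMs with PD0325901, RSKi47, or DMSO; the PD0325901 points at 0 h are the 10 min group. Points are libraries and bars are mean ± SD; 1 RSKi47 library at 1 h is the highest point of all for Nr4a1 (12.92) and Nr4a2 (6.70).

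Elk1-/-Elk4-/- cells lack ELK1 and ELK4, but not ELK3, of the ternary complex factors through which ERK1/2 act on serum response elements. Both Nr4a1 and Nr4a3 were lower than in WT at 1 h, and at 2 h only Nr4a3 was called. The 4 libraries of Nr4a1 were at 10.55, 10.52, 10.19, and 10.51 at 0.5 h, 9.72, 9.79, 9.53, and 9.78 at 1 h, and 7.50, 7.55, 7.43, and 7.86 at 2 h. They overlapped WT at 0.5 and 2 h and lay below all WT libraries at 1 h. The differences were -1.0 at 1 h (SE 0.15, adjusted p = 2.28e-07, 53.4% of genes called) and 0.19 at 2 h (adjusted p = 0.341, 50.8% called). At 0.5 h it was -0.41 (SE 0.15, adjusted p = 0.0246, 44.4% called), a call that was lost without WT replicate 7 (-0.26, adjusted p = 0.132), WT replicate 8 or 9, or Elk1-/-Elk4-/- replicate 3, with a replicate block (adjusted p = 0.0909), and with all libraries fitted (adjusted p = 0.0858). In unstimulated cells it was -0.12 (adjusted p = 0.51, 51.8% called). About 1 gene in 2 was called at every time in this arm, so that a call alone does not set a gene apart.

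Nr4a3 in Elk1-/-Elk4-/- libraries was at 4.63, 5.14, 4.76, and 5.12 at 1 h and at 7.65, 7.68, 7.69, and 7.54 at 2 h. At both times all 4 lay below every WT library. The differences from WT were -0.76 at 1 h (SE 0.19, adjusted p = 0.000536) and -0.61 at 2 h (SE 0.20, adjusted p = 0.0106). Unstimulated values were 3.80, 4.39, 3.99, and 3.57, a difference of 0.31 (adjusted p = 0.156). Nr4a2 was lower at 0.5 h by the test (-0.28, SE 0.10, adjusted p = 0.0268), but not without Elk1-/-Elk4-/- replicate 3 (-0.21, adjusted p = 0.115) or WT replicate 8 (-0.25, adjusted p = 0.0565), nor with all libraries fitted (adjusted p = 0.171). The summed level of 8 neutrophil markers, of which 6 passed the filter, was 10.8 to 11.5 in these libraries and 9.12 to 10.2 in WT, and its part in the results of this arm was not tested.

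Within Elk1-/-Elk4-/- cells LPS raised Nr4a1 by 2.91 at 0.5 h (adjusted p = 4.74e-21, 4.96% of genes called) and 2.17 at 1 h (adjusted p = 1.25e-16, 33.3% called), and the level at 2 h differed by 0.05 from unstimulated cells (adjusted p = 0.806, 67.2% called). Nr4a3 rose by 0.97 at 1 h (adjusted p = 9.11e-05) and 3.70 at 2 h (adjusted p = 4.82e-23). At 0.5 h only 0.0589% of genes differed from WT in their response, and the 3 genes were not among them (Nr4a1 -0.28). At 1 h 1.35% did, with Nr4a1 at -0.88 (SE 0.21, adjusted p = 0.016) and Nr4a3 at -1.07 (SE 0.26, adjusted p = 0.0162). Both calls depended on single replicates. That of Nr4a1 was lost with all libraries fitted (adjusted p = 0.115) and without Elk1-/-Elk4-/- replicate 1, 3, or 4 (-0.88, -0.81, and -0.89, adjusted p up to 0.102), and that of Nr4a3 without Elk1-/-Elk4-/- replicate 1, 2, or 3 (-1.03, -1.0, and -1.01, adjusted p up to 0.101) or WT replicate 4 (-0.94, adjusted p = 0.0754). At 2 h, with 16.9% called, Nr4a3 was at -0.92 (SE 0.28, adjusted p = 0.0144), or -0.78 (adjusted p = 0.0654) without Elk1-/-Elk4-/- replicate 2, and Nr4a1 at 0.32 (adjusted p = 0.374).

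With RSKi47, which inhibits the RSK kinases downstream of ERK1/2, Nr4a3 was higher than in untreated WT without LPS and at 1 and 2 h, and Nr4a1 was lower at 0.5 h. Nr4a3 was at 4.19, 4.20, 3.97, and 4.17 without LPS, at 4.16, 4.47, and 4.31 at 0.5 h, and at 9.98, 10.03, 9.96, and 8.80 at 2 h. The groups without LPS and at 2 h lay wholly above WT, and the low 2 h value was that of replicate 4. At 1 h the libraries were at 8.13, 6.46, 6.49, and 6.18, of which the last lay inside the WT range. The difference from WT was 1.44 at 2 h (SE 0.21, adjusted p = 1.13e-08, 52.1% of genes called), and 1.74 without replicate 4 (adjusted p = 2.95e-11). At 1 h it was 1.14 (SE 0.19, adjusted p = 5.19e-07, 52.8% called) with all libraries and 0.70 (adjusted p = 0.000915) without replicate 1. Without LPS it was 0.51 (SE 0.19, adjusted p = 0.0224, 53% called), and 0.0887 was the adjusted p when only this arm and WT were fitted and 0.0524 without replicate 2. At 0.5 h it was 0.44 (adjusted p = 0.08, 48.2% called), and it passed without replicate 1 (0.51, adjusted p = 0.0461) or WT replicate 6 (0.52, adjusted p = 0.0478).

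Nr4a1 in RSKi47-treated cells was at 9.91, 10.02, and 10.03 at 0.5 h, below all WT libraries, a difference of -0.87 (SE 0.22, adjusted p = 0.000627). At 1 h it was at 12.92, 10.68, 10.65, and 10.10. Replicate 1 lay above every other library of the series, and the other 3 overlapped WT. The difference at 1 h was 0.38 (adjusted p = 0.1) with all libraries and -0.23 (adjusted p = 0.230) without replicate 1. It passed the test upward without replicate 4 (0.71, adjusted p = 0.00273), replicate 2 (0.52, adjusted p = 0.0453), or replicate 3 (0.53, adjusted p = 0.0407), each of which keeps replicate 1. Without LPS it was -0.39 (adjusted p = 0.0911) and at 2 h -0.40 (adjusted p = 0.114), and the libraries (7.29, 7.37, 7.30, and 7.11, and 6.95, 7.11, 6.98, and 6.92) lay below WT at both times. Without replicate 1 the difference without LPS passed (-0.40, adjusted p = 0.0323). Nr4a2 at 1 h was at 6.70, 4.29, 4.32, and 4.36, and its difference from WT was 0.33 (adjusted p = 0.0891) with replicate 1 and -0.26 (adjusted p = 0.0406) without it, so that its direction rested on that library. Without replicate 2, 3, or 4 it was 0.54, 0.53, and 0.52 (adjusted p up to 0.0133). The summed level of 6 fibroblast markers, of which Col1a1 and Col1a2 passed the filter, was 5.07 to 9.42 in RSKi47 libraries against 3.99 to 4.95 in WT, and its part in the results of this arm was not tested.

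LPS raised Nr4a1 in RSKi47-treated cells by 2.72 at 0.5 h (5.1% of genes called) and by 3.82 at 1 h (29% called), which became 3.21 without replicate 1, and at 2 h the difference was -0.28 (62.2% called). Nr4a3 rose by 2.68 at 1 h, or 2.24 without replicate 1, and by 5.56 at 2 h (adjusted p = 1.79e-43). At 0.5 h 0.0251% of genes differed from WT in their response and at 1 h 5.54% did, and the 3 genes were not called at either time. At 1 h the difference for Nr4a1 was 0.77 (adjusted p = 0.0953), 0.16 without that library, and 1.05 (adjusted p = 0.0179) without replicate 4. For Nr4a3 at 1 h it was 0.63 (adjusted p = 0.204), and 0.20 (adjusted p = 0.823) without that library. The higher Nr4a3 at 1 h was thus not called as a larger response, and Nr4a3 was already higher without LPS. At 2 h, with 21% called, the response of Nr4a3 was larger than that of WT by 0.94 (SE 0.29, adjusted p = 0.0121), and that of Nr4a1 differed by -0.01. Without replicate 4 the difference for Nr4a3 was 1.24 (adjusted p = 0.00077), without replicate 3 it was 0.79 (adjusted p = 0.0682), and with only this arm and WT fitted its adjusted p was 0.0766.

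The library of RSKi47 replicate 1 at 1 h was examined further. In it, 17 genes with a usable value lay at least 1 above the highest of the other 3 libraries of the group, and 1 gene lay as far below the lowest. For replicate 4 of the same group the numbers were 10 above and 30 below. All 3 Nr4a genes were among the 17. Of the others, the widest gaps were those of Areg, a ligand of the epidermal growth factor receptor, at 7.14 against 4.51 to 4.63, and the cytokine gene Il10 at 10.56 against 7.16 to 8.06. Next came Mt2 at 9.18 against 6.43 to 6.90, Il1r2 at 5.61 against 3.56 to 3.84, and Vegfa at 11.83 against 9.22 to 10.36. Fos, at 12.67 against 11.35 to 11.50, had a narrower gap. Fosb in this library carried the only value in the table beyond 25 and was treated as missing.

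**Figure D3:**
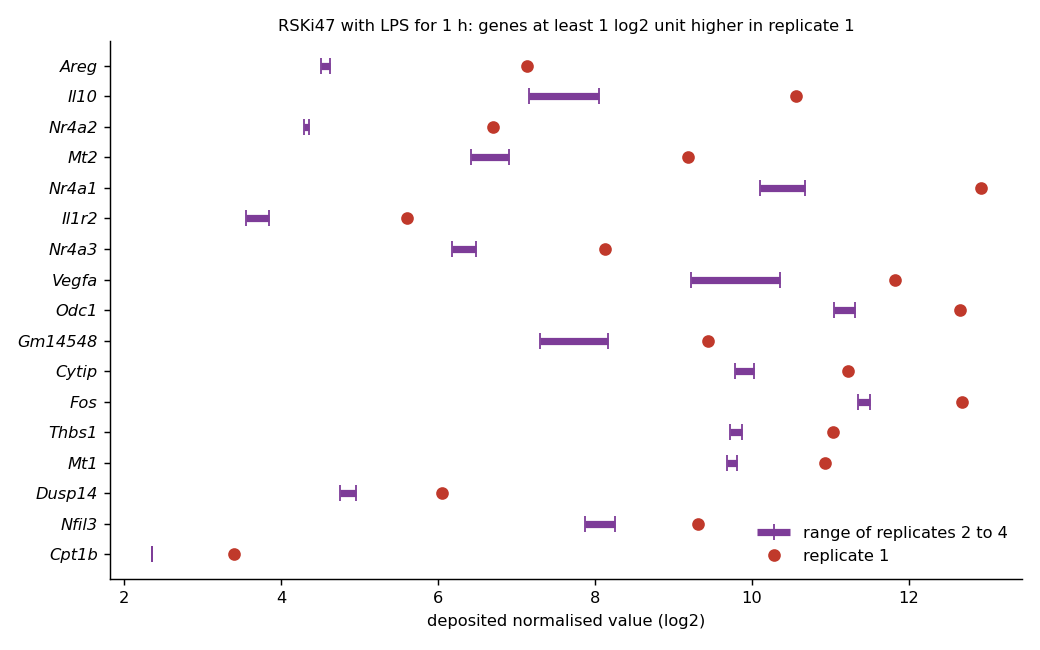
The 17 genes for which RSKi47 replicate 1 at 1 h of LPS lies at least 1 above the other 3 libraries of its group, on the deposited log2 scale. The point is replicate 1 and the bar with end ticks spans replicates 2 to 4; Nr4a2 is at 6.70 against 4.29 to 4.36, Nr4a1 at 12.92 against 10.10 to 10.68, and Nr4a3 at 8.13 against 6.18 to 6.49.

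Across the 17 comparisons of an arm with WT at the same time, Nr4a1 was called in 10, all lower. Nr4a3 was called in 6, of which 3 were lower (Elk1-/-Elk4-/- at 1 and 2 h, Nfkb1[SS/AA] at 1 h) and 3 higher (RSKi47). Nr4a2 was called in 1. Of all genes, 1.37% to 53.4% were called in these 17 comparisons, and 42.5% to 53.4% in the 6 that called Nr4a3. The count for Nr4a3 therefore does not set it apart. Over all 61 comparisons tested, the numbers called were 38 for Nr4a1, 26 for Nr4a3, and 5 for Nr4a2, and with a difference of at least 1 required as well they were 25, 14, and 0. The share of all genes called ran from 0% to 71.5% in these comparisons, and from 0% to 11% with that difference required. No difference of response between an arm and WT was called for Nr4a2.

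**Figure D4:**
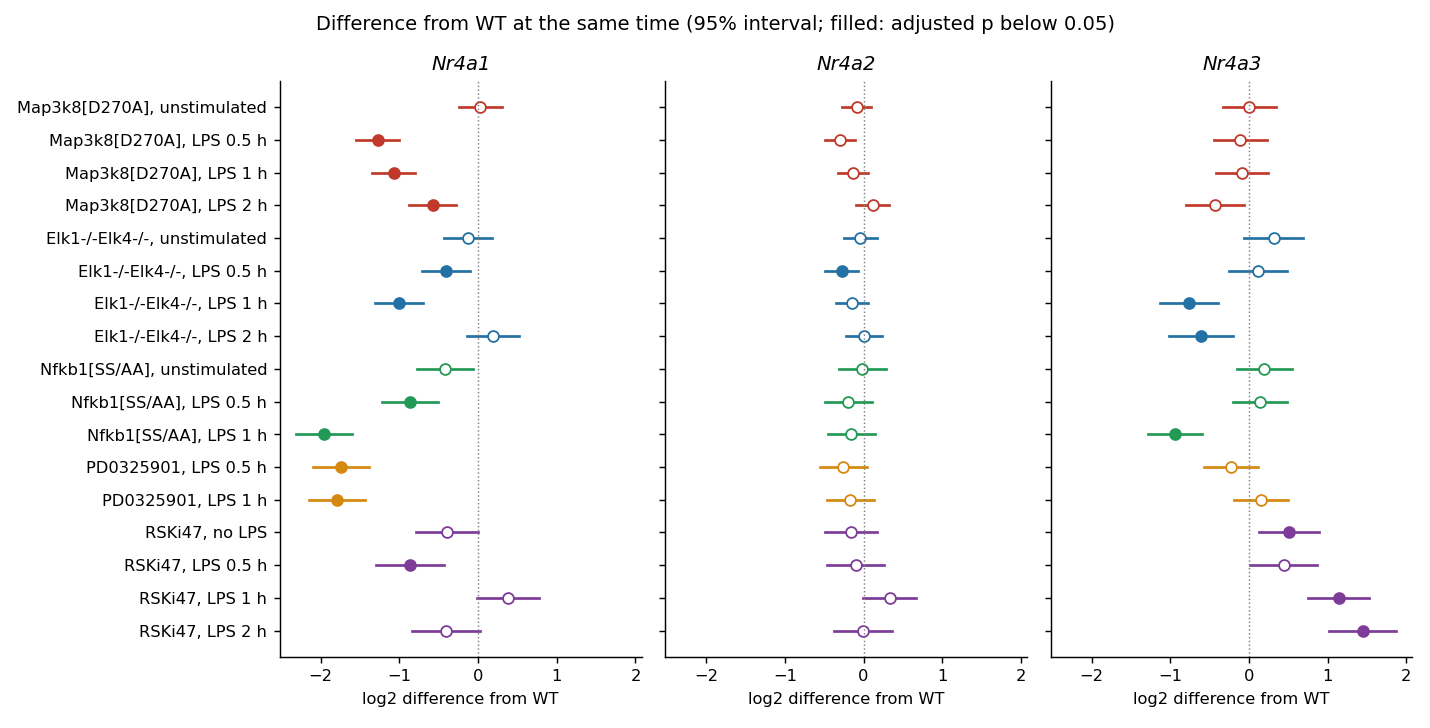
Difference of each arm from WT at the same time of LPS for the 3 genes, on the deposited log2 scale, with the 95% interval of the limma fit. Filled points have an adjusted p below 0.05; the filled Nr4a1 points all lie below 0, and the filled Nr4a3 points lie on both sides, from -0.94 (Nfkb1[SS/AA] at 1 h) to 1.44 (RSKi47 at 2 h).

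The arms were also set against each other at matched times. Elk1-/-Elk4-/- cells had more Nr4a1 than Map3k8[D270A] cells at 0.5 h (0.87, adjusted p = 0.000173, 51.3% of genes called) and at 2 h (0.77, adjusted p = 0.000778, 51.2% called). At 1 h the difference was 0.07 (adjusted p = 0.78, interval -0.33 to 0.47, 53.3% called). Nr4a3 at 1 h was lower in Elk1-/-Elk4-/- than in Map3k8[D270A] cells, by -0.67 (adjusted p = 0.00248). Nfkb1[SS/AA] cells at 1 h differed from Map3k8[D270A] cells by -0.88 for Nr4a1 (95% interval -1.24 to -0.52) and by -0.85 for Nr4a3 (interval -1.19 to -0.50). At 0.5 h Nr4a1 differed between these arms by 0.41 (adjusted p = 0.0613, 39.5% called), or 0.54 (adjusted p = 0.0142) without Nfkb1[SS/AA] replicate 6. PD0325901-treated cells had less Nr4a1 than Map3k8[D270A] cells at 0.5 h (-0.46, adjusted p = 0.039, 31.2% called) and at 1 h (-0.72, adjusted p = 0.00072, 40.7% called). The call at 0.5 h was lost without the filter (adjusted p = 0.0585) and without any of Map3k8[D270A] replicates 1, 2, 4, and 5 or PD0325901 replicates 1, 2, 4, 5, and 6 (-0.47 to -0.43, adjusted p from 0.0546 to 0.0833). For Nr4a3 their differences were -0.12 (adjusted p = 0.65) and 0.24 (adjusted p = 0.268).

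The inhibitors differ in target and dose, so their values are set side by side as measured at the same times. At 0.5 h RSKi47-treated cells had more Nr4a1 (0.87, adjusted p = 0.00055) and more Nr4a3 (0.67, adjusted p = 0.0065) than PD0325901-treated cells, with 49.5% of genes called. At 1 h, with 53.9% called, the differences were 2.18 (adjusted p = 1.35e-16) and 0.99 (adjusted p = 9.7e-06), and without RSKi47 replicate 1 they were 1.56 and 0.55 (adjusted p = 0.0092 for Nr4a3). For Nr4a2 the difference at 1 h of 0.50 (adjusted p = 0.00925) became -0.10 (adjusted p = 0.481) without that library.

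Whether the genes shifted by unequal amounts was tested within libraries, by comparing the gap between a pair of Nr4a genes in an arm with the gap in WT (exact permutation test over libraries, two-sided, 51 tests adjusted together). Of these 20 passed, 9 of them for Nr4a1 and Nr4a3, and 3 of the 9 were without LPS (change of gap -0.90 with RSKi47, -0.62 in Nfkb1[SS/AA], and -0.44 in Elk1-/-Elk4-/- cells). Nr4a1 shifted down relative to Nr4a3 in Map3k8[D270A] cells by 1.17 at 0.5 h (change of gap -1.17, exact p = 0.0022, the smallest this design allows, adjusted p = 0.0138) and by 0.98 at 1 h (change of gap -0.98, exact p = 0.0043, adjusted p = 0.0162). With PD0325901 the change of the gap was -1.51 at 0.5 h and -1.95 at 1 h (exact permutation test, adjusted p = 0.0138 for both), and in Nfkb1[SS/AA] cells it was -1.01 at both times (adjusted p = 0.0162). At 0.5 h Nr4a3 had not been called in WT (0.25 against unstimulated cells, limma adjusted p = 0.391). The changes of the gap at 0.5 h therefore restate the lower Nr4a1 and cannot compare how far the genes depend on the pathway. In Elk1-/-Elk4-/- cells at 1 h, where both genes were lower, the change of the gap was -0.24 (exact p = 0.376, adjusted p = 0.457). At 2 h the change ran upward in Elk1-/-Elk4-/- cells (0.80, exact p = 0.0286, adjusted p = 0.056) and was -0.15 in Map3k8[D270A] cells (exact p = 0.686, adjusted p = 0.744). With RSKi47 at 2 h it was -1.85 (exact p = 0.0286, the smallest that 4 against 4 libraries can give, adjusted p = 0.056).

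The group means of Nr4a1 ran from 6.82 (Map3k8[D270A] at 2 h) to 11.09 (RSKi47 at 1 h, or 10.48 without replicate 1), and the next highest was WT at 0.5 h with 10.85. Of the 24 pairs of neighbours in this order, 4 had libraries that did not overlap. Nr4a3 ran from 3.62 in unstimulated WT to 9.69 with RSKi47 at 2 h, followed by WT at 2 h with 8.25, and 3 of its 24 pairs of neighbours did not overlap, that uppermost pair among them. Nr4a2 ran from 4.15 (DMSO) to 4.92 (RSKi47 at 1 h, or 4.32 without replicate 1), and all 24 pairs overlapped. Apart from the 6.70 of that library, every Nr4a2 value in the series lay between 3.95 and 4.85.

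Over the 25 group means, among 11970 other genes, those most like Nr4a1 by Pearson correlation were Phlda1 (0.94), Btg2 (0.92), Egr2 (0.92), Trib1 (0.92), and Ier5 (0.91). For Nr4a3 they were Il4i1 (0.97), Cav1 (0.97), Syk (0.97), Ahr (0.97), and Ido2 (0.96), and for Nr4a2 Clcf1 (0.80), Mark3 (0.79), Cyth1 (0.79), Dnah17 (0.78), and Cxcl16 (0.77). Without the RSKi47 library that stood apart, all 5 genes for Nr4a1 stayed the nearest, 2 of 5 did for Nr4a3, and 0 of 5 for Nr4a2. The points share libraries and the course of LPS, and the values are a description. Genes alike over the groups could differ in a single comparison: at 1 h Phlda1 averaged 11.02 in WT and 9.55 in Map3k8[D270A] cells, whereas Egr2 averaged 12.52 and 12.50. Among the 3 genes themselves, Nr4a2 and Nr4a3 had a correlation of 0.73, Nr4a1 and Nr4a2 0.25 (0.0073 without that library), and Nr4a1 and Nr4a3 -0.12. By this measure Nr4a3 ranked 41 among the genes most like Nr4a2, and Nr4a2 ranked 1799 among those most like Nr4a3. The 0.73 therefore does not set this pair apart.

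Other immediate early genes served as a list of 12, all of which were tested. In WT cells all 12 were called higher at 0.5 h (11.6% of all genes called in either direction), with a median difference of 2.70 (all genes -0.0043), led by Egr1 at 5.34, Ier2 at 3.33, Fos at 3.15, and Zfp36 at 3.09. At 1 h 12 were higher (median 2.13, 46.8% of all genes called), and at 2 h 7 were higher and 2 lower (71.5% called). In Map3k8[D270A] cells 11 were lower than WT at 0.5 h (median -0.96, 1.37% of all genes called), with Egr1 at -4.41, Ier2 at -1.68, Fosb at -1.47, and Egr3 at -1.16, and at 1 h 10 were lower (median -0.93, 9.79% called). The call of Nr4a1 at both times thus stood beside that of most of the list. At 1 h 9 were lower in Elk1-/-Elk4-/- cells (median -0.38), where 53.4% of all genes were called. Of the list, 10 were lower and 1 higher in Nfkb1[SS/AA] cells (median -0.82, 42.5% of all genes called), and 9 were lower and 1 higher with PD0325901 (median -0.85, 35.7% called). With RSKi47 at 1 h, where 52.8% of all genes were called, 2 were higher, Egr1 at 1.01 and Zfp36 at 0.33, and 2 were lower, Fosb at -0.62 and Atf3 at -0.39. The value for Fosb rests on 3 RSKi47 libraries, since that of replicate 1 was set missing, whereas the other genes include replicate 1.

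Other nuclear receptors changed by less than 1 in WT cells. Of 46 listed, 19 were tested with WT, Map3k8[D270A], and Elk1-/-Elk4-/- cells. In WT none was called at 0.5 h by limma. At 1 h 7 were higher and 4 lower against 46.8% of all genes called, with Rara, a retinoic acid receptor, at 0.50 and Ppard, a receptor for fatty acids, at 0.49. At 2 h 6 were higher and 10 lower against 71.5% of all genes, with Nr2f6 at -0.98, Nr2c2 at -0.87, Rxra at -0.85, and Pparg at -0.78. No difference of 1 or more was called for these 19 in WT at any of the 3 times against unstimulated cells. Such differences were rare in the whole table as well, with shares of 0.623% (0.5 h), 4.14% (1 h), and 11% (2 h). Among only 19 genes, their absence therefore does not set nuclear receptors apart. In Map3k8[D270A] cells 1 was lower at 1 h, Ppard at -0.39 (adjusted p = 0.000688), against 9.79% of all genes. The counts in WT at 1 and 2 h lie near the shares over all genes and do not set nuclear receptors apart. Of 6 partners and corepressors tested, among them the dimer partner Rxra, 5 were lower in WT at 2 h and 1, the demethylase gene Kdm1a, was higher (0.57), against the same 71.5%. Of 16 genes of factors described at NR4A promoters, 4 were higher in WT at 0.5 h (11.6% of all genes called) and 14 at 1 h (46.8%), with the NF-κB subunit gene Rel at 2.63, and in Map3k8[D270A] cells 4 were lower at 1 h (9.79% called), with Rel at -0.39.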

How the data were processed

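RNA of BMDMs was sequenced in all 25 groups. According to the methods, the authors sequenced strand-specific libraries and estimated counts per RefSeq gene. The submitters' processing notes name RSEM 1.2.29, STAR 2.5.1b, DESeq2 1.10.1, and mm10. The authors deposited normalised values on a log2 scale, with 1 column per library, made by a transformation that no source used here gives. Counts cannot be recovered from them, so the depth of the libraries is unknown here, the replicates set the precision, no pseudocount was needed, and no count test was run. A value of 57.73 (Fosb, RSKi47 replicate 1 at 1 h) lay above a limit of 25 and was set missing.

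Groups came from the sample labels. A limma 3.58.1 fit (R 4.3.3) with a mean per group was made on 62 libraries (WT, Map3k8[D270A], and Elk1-/-Elk4-/-; 11884 genes that reached 10 on the linear scale in 4 or more) and, for all other arms and for comparisons between arms, on all libraries (11971 genes, reached in 3). Calls used the Benjamini-Hochberg adjusted p over all genes at 0.05. The fit was tested on simulated data. In WT (30 of 30 correlations of deviations over 0.1, lowest 0.164) and Nfkb1[SS/AA] cells (18 of 18, lowest 0.145) libraries of the same replicate number deviated together, so the blocked fit is given beside a result there where it changed a call. These correlations were not compared with those between different numbers, so they cannot tell a replicate number from a set of replicates.

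The members and gene lists were chosen with earlier results of these data known. The text names the 3 members, the 5 genes most like each over the group means, at most 4 genes per list and comparison with the largest change among those called, and Elk1 and Elk4; genes of the library that stood apart were named after their values were seen. Alternatives were another scaling (median centring, quantile), no filter, a trend with robust fitting, other sets of libraries, the replicate block, sets of replicates, and leaving out each replicate.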

Additional observations from a re-analysis of the deposited data

Results flagged for a closer look

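Among 60 combinations of gene and group with 4 to 10 libraries, 7 had a library far from the rest of its group by Dixon's criterion, where chance gives about 1 in 20, or 3. In RSKi47-treated cells at 1 h, replicate 1 was the outlying library for Nr4a2 (6.70) and Nr4a3 (8.13). For Nr4a1 its 12.92 did not reach the criterion. With RSKi47, the low values were Nr4a3 in replicate 3 without LPS (3.97) and in replicate 4 at 2 h (8.80). In Elk1-/-Elk4-/- cells at 0.5 h, replicate 3 was low for both Nr4a1 (10.19) and Nr4a3 (3.71). With PD0325901 at 1 h, replicate 1 was low for Nr4a1 (8.72).

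Of 39 tests of whether an arm responded to LPS differently from WT, 11 passed. The share of all genes called in these comparisons ran from 0.0251% (RSKi47 at 0.5 h) to 21% (RSKi47 at 2 h). For Nr4a1 the response was smaller in Map3k8[D270A] cells at 0.5 h (-1.31), 1 h (-1.10), and 2 h (-0.61), in Elk1-/-Elk4-/- cells at 1 h (-0.88), in Nfkb1[SS/AA] cells at 1 h (-1.53), and with PD0325901 at 0.5 h (-1.24) and 1 h (-1.07). For Nr4a3 it was smaller in Elk1-/-Elk4-/- cells at 1 h (-1.07) and 2 h (-0.92) and in Nfkb1[SS/AA] cells at 1 h (-1.13), and larger with RSKi47 at 2 h (0.94). All 11 use the same WT libraries.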

How the results depend on the processing

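Of 979 values recomputed under alternatives for each gene, 921 for Nr4a1, 890 for Nr4a2, and 926 for Nr4a3 kept both direction and side of the threshold. A further 11, 57, and 33 changed sign without passing before or after, and 1, 4, and 0 changed sign with a call on either side. Among the former were Nr4a1 with RSKi47 at 1 h (0.38, and -0.23 without replicate 1), Nr4a3 in Map3k8[D270A] at 2 h (-0.43, and 0.03 in the first set of replicates), and, with a replicate block, Nr4a3 in unstimulated Elk1-/-Elk4-/- cells (0.31, and -0.05) and with PD0325901 at 1 h (0.15, and -0.07). Unless a value shows it, the cause of a change was not tested.

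With a replicate block, Nr4a2 in WT at 1 h (0.21), Nr4a2 in Map3k8[D270A] at 0.5 h (-0.28), Nr4a3 in Map3k8[D270A] at 2 h (-0.65), Nr4a3 with PD0325901 at 0.5 h (-0.45), and the Nr4a1 response to RSKi47 at 1 h (0.77) came to pass. Nr4a1 and Nr4a2 in Elk1-/-Elk4-/- at 0.5 h (-0.33 and -0.25) and Nr4a3 with RSKi47 without LPS (0.21) no longer passed. For LPS effects within an arm and differences of response, the block was replicate number within each arm. For comparisons between arms it was the number alone, which matches equal numbers of different arms. Against WT, 0 to 3 correlations of deviations per arm were over 0.1, and in Map3k8[D270A] all 12 were negative (-0.449 to -0.057, median -0.297). Equal numbers were thus not taken as pairs across arms, the main fits did not pair them, and blocked values between arms stand only as an alternative. Within arms, every correlation was over 0.1 only in WT and Nfkb1[SS/AA], but most were in Map3k8[D270A] (34 of 36, median 0.425), RSKi47 (20 of 21, 0.317), and Elk1-/-Elk4-/- (20 of 24, 0.231), against 14 of 33 (0.0708) with PD0325901. Same-numbered libraries thus mostly deviated together in those arms too. Correlations between different numbers were not taken as a baseline. The block changed no other call.

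Within sets of replicates, the Nr4a1 step in WT from 0.5 to 1 h was 0.38 (reversed) and -0.68, its WT difference at 2 h -0.35 (passed), its Map3k8[D270A] difference at 2 h -0.61, its response differences -0.79 at 0.5 h and -0.63 at 2 h (all 3 no longer passed), and Nr4a3 in Map3k8[D270A] at 2 h -0.69 (passed).

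With all libraries in the fit, calls were lost at 0.5 h in Elk1-/-Elk4-/- for Nr4a1 (-0.41) and Nr4a2 (-0.28), for the Nr4a2 rise at 2 h in that arm (0.25), and for the Nr4a1 responses of Map3k8[D270A] at 2 h (-0.61) and Elk1-/-Elk4-/- at 1 h (-0.88). With only an arm and WT fitted, Nr4a2 with PD0325901 at 0.5 h (-0.26) and Nr4a1 and Nr4a2 with DMSO (-0.45 and -0.22) passed, and Nr4a3 with RSKi47 without LPS (0.51), the Nr4a2 rise with RSKi47 at 1 h (0.70), and the Nr4a3 response to RSKi47 at 2 h (0.94) did not. The Nr4a2 rise in Elk1-/-Elk4-/- cells at 2 h was also lost with a trend and robust fitting (0.25), median centring (0.23), quantile scaling (0.24), and no filter (0.25). Nr4a1 with PD0325901 against Map3k8[D270A] at 0.5 h was lost without the filter (-0.46), and Nr4a2 with RSKi47 against PD0325901 at 1 h with quantile scaling (0.38).

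Without RSKi47 replicate 1 at 1 h, an alternative chosen after seeing the data, Nr4a2 with RSKi47 at 1 h turned to -0.26 against WT and to -0.10 against PD0325901, and its rise in that arm became 0.11 (not passed). Calls gained were Nr4a1 in unstimulated Nfkb1[SS/AA] (-0.43), with DMSO (-0.45), with RSKi47 without LPS (-0.39) and at 2 h (-0.40), and in Nfkb1[SS/AA] against Map3k8[D270A] at 0.5 h (0.41). Nr4a2 with PD0325901 at 0.5 h (-0.26), Nr4a2 in RSKi47 cells at 2 h against no LPS (0.36), and Nr4a3 with RSKi47 at 0.5 h (0.44) were gained as well.

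Leaving out each replicate in turn moved these results across the threshold at least once. Nr4a2 in WT gave 0.18 to 0.25 at 1 h and 0.15 to 0.28 at 2 h. Nr4a3 in Map3k8[D270A] at 2 h gave -0.57 to -0.28. In Elk1-/-Elk4-/- at 0.5 h Nr4a1 gave -0.55 to -0.26 and Nr4a2 -0.31 to -0.21. With RSKi47, Nr4a1 gave -0.43 to -0.34 without LPS and -0.23 to 0.71 at 1 h, Nr4a3 0.49 to 0.56 without LPS and 0.36 to 0.52 at 0.5 h, and Nr4a2 at 1 h -0.26 to 0.54, against PD0325901 -0.10 to 0.71. The Nr4a2 rise gave 0.16 to 0.38 in Elk1-/-Elk4-/- at 2 h, and with RSKi47 0.12 to 0.94 at 1 h and 0.23 to 0.46 at 2 h. Differences of response gave, for Nr4a1, -0.64 to -0.57 (Map3k8[D270A], 2 h), -0.92 to -0.81 (Elk1-/-Elk4-/-, 1 h), -1.12 to -1.03 (PD0325901, 1 h), and 0.17 to 1.05 (RSKi47, 1 h). For Nr4a3 they gave -1.26 to -0.94 and -1.04 to -0.78 (Elk1-/-Elk4-/-, 1 and 2 h) and 0.79 to 1.24 (RSKi47, 2 h). Against Map3k8[D270A] at 0.5 h, Nr4a1 gave 0.29 to 0.54 in Nfkb1[SS/AA] and -0.53 to -0.43 with PD0325901. The negative ends with RSKi47 at 1 h are those without replicate 1.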
